A study of Mus musculus with 6 samples.

Results

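Cdk6 encodes the kinase that was immunoprecipitated in this study, and the peaks across its own gene are described here. Its members were chosen by position, as all peaks of the 4 lists between 5000 bp before and 5000 bp after the Cdk6 gene (ENSMUSG00000040274.11) in GENCODE M21. On the plus strand of mouse chromosome 5, in build GRCm38 (mm10), the gene runs from 3341485 to 3531008 and the window from 3336485 to 3536008, which is 199.524 kb. Of the 147019 peaks in the 4 lists, 66 lay in this window. Overlapping peaks merged into 22 regions, of 56748 in the series. Cdk6 was picked with these peaks already known, so their number and strength are given as a description.

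The libraries came from murine pre/pro-B cell lines transformed by BCR::ABL1, all on a Cdk6-/- background. The lines overexpressed an HA-tagged CDK6, either the wildtype protein (CDK6-WT, n = 2) or the kinase-inactive mutant CDK6-K43M (n = 2), and chromatin was precipitated with an antibody against HA after crosslinking with DSG and formaldehyde. The labels number the libraries of each variant 1 and 2 without saying whether these were separate lines or cultures, so any p-value measures the spread between these libraries alone. The stretch missing from the Cdk6-/- allele and the species of the introduced CDK6 sequence are not given in the sources used here.

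CDK6 partners with D-type cyclins and phosphorylates RB family proteins, which releases E2F factors at the entry into the cell cycle. INK4 proteins such as p16 inhibit it. It has no DNA-binding domain of its own and reaches chromatin with other proteins. The lysine at codon 43 lies in the ATP-binding pocket of the kinase, and its exchange for methionine removes the kinase activity.

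Each list gives the fold enrichment of a peak over its local control and the −log10 q of its summit. Strength is given below as this fold enrichment and as the percentile of the −log10 q within the list, where 100 marks the strongest peak. Read numbers at the summit, and the control level there, were solved from the fold enrichment and the −log10 p. The term summit level stands for the scaled reads at the summit as a multiple of the lowest control level in the list. The lists of CDK6-WT replicate 1 (35189 peaks) and replicate 2 (34729) and of CDK6-K43M replicate 1 (39797) and replicate 2 (37304) had a median of 15 to 23 reads at the summit. Promoters of 7 of 8 B-lineage genes carried a peak in all 4 lists and Rag1 did so in the replicate 2 lists, whereas none of 6 promoters of T-cell, myeloid or erythroid genes carried a peak in any list. Of all 21938 protein-coding genes, 33.3% had a promoter peak in all 4 lists.

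The sequence of exon 2 under both peaks that lay on it, chr5:3344423-3344599 on the plus strand, is shown because it holds the codon that differs between the introduced proteins. Capitals mark codon 43 of the mouse gene, a lysine codon.

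Exon 2: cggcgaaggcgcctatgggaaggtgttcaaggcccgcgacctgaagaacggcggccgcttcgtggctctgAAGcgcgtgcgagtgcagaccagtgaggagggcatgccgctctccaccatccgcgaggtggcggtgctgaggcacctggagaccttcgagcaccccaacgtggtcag

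The next sequences are 201 bp around the strongest summit of the 4 intronic regions with the highest percentiles. They are shown because the 6 Cdk6 peaks above percentile 90 all lay in these regions. They are on the plus strand at chr5:3494436-3494636 (+153 kb from the gene start), chr5:3461114-3461314 (+120 kb), chr5:3502575-3502775 (+161 kb) and chr5:3490434-3490634 (+149 kb). Capitals mark matches to the RUNX motif TGTGGT on either strand.

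+153 kb: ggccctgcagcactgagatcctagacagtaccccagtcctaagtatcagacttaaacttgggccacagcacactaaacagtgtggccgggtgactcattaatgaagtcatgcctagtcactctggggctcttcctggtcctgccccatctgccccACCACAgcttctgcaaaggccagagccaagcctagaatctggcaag
+120 kb: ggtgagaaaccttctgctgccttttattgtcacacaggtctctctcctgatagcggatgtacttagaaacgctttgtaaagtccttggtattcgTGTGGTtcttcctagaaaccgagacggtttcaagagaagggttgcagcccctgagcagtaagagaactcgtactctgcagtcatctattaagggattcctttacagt
+161 kb: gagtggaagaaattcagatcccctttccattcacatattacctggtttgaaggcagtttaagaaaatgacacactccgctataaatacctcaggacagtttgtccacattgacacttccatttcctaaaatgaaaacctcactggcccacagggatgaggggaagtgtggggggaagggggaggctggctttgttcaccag
+149 kb: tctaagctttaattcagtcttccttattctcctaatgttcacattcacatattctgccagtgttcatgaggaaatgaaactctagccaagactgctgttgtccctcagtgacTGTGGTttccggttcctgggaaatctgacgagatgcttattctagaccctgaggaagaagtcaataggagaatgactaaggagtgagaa

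The Cdk6 peaks lay for the most part in introns. Few overlapped coding sequence, which itself makes up only 0.490% of the window. Each peak was put in the first class that applied, of coding exon, noncoding exon, promoter window of a coding Cdk6 transcript (2000 bp before to 200 bp after its start), intron and flank. Of the 66 peaks, 3 (4.55%) overlapped a coding exon, 2 a noncoding exon, 8 a promoter window alone and 53 (80.3%) were intronic. Regardless of class, 12 peaks overlapped a promoter window of a coding Cdk6 transcript, and 10 of the intronic peaks overlapped that of a retained-intron or antisense transcript. No peak lay in the flanks beyond the promoters. CDK6-WT replicate 1 had 19 peaks, of which 15 were intronic. CDK6-WT replicate 2 had 11 peaks, of which 10 were intronic. CDK6-K43M replicates 1 and 2 had 17 and 19 peaks, with 13 and 15 in introns. Introns make up 88.0% of the window. Of the peaks in all gene bodies of at least 100 kb, 69.5% were intronic in CDK6-WT replicate 1, 76.2% in CDK6-WT replicate 2, 71.9% in CDK6-K43M replicate 1 and 77.9% in CDK6-K43M replicate 2, so the intronic share at Cdk6 was near the usual one.

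**Figure D1:**
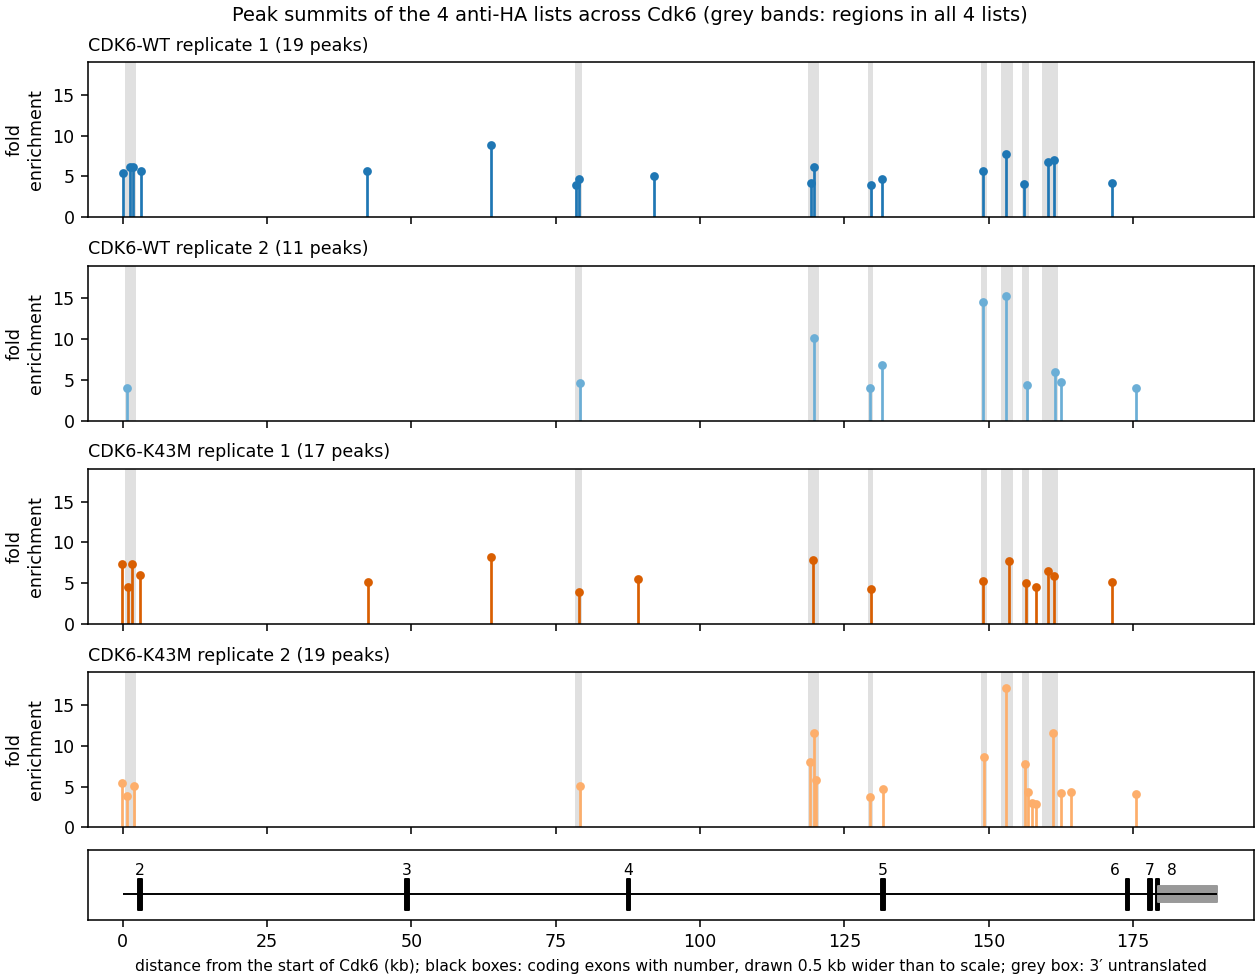
Fold enrichment (vertical axis, same scale in every panel) of each peak against the distance of its summit from the start of Cdk6 in kb, with 1 panel per library and the coding exons 2 to 8 below. Grey bands mark the 8 regions found in all 4 lists, and the tallest stem of each replicate 2 panel stands at +153 kb.

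The coding part of Cdk6 (reference transcript ENSMUST00000165117.7) is short, with 7 coding exons that hold 978 bp, or 0.490% of the window. Exon 2 (chr5:3344367-3344599) carries the start codon and codon 43. It had a peak in CDK6-WT replicate 1 and in CDK6-K43M replicate 1. The CDK6-WT peak was 184 bp wide, covered 76.0% of the coding bases, and had a fold enrichment of 5.64 at percentile 34.0. The CDK6-K43M peak was 209 bp wide, covered 80.7%, and had a fold enrichment of 5.97 at percentile 46.9. Both were thus of middling or lower strength in their lists. Their summits lay 41 bp and 11 bp from codon 43, the stretch in capitals in the exon 2 sequence. They rested on 16 reads (95% exact Poisson interval 9.15 to 26.0) and 21 reads (13 to 32.1), where the intervals cover counting error only. Reads from the chromosomal exons and from an introduced CDK6 sequence that matches them cannot be told apart in a peak list. Exon 2 had no peak in either replicate 2 list, and the nearest peak was 1902 bp away in CDK6-WT and 855 bp away in CDK6-K43M.

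Exon 5 (chr5:3473119-3473228) was under a peak in CDK6-K43M replicate 2 alone. This peak was 555 bp wide and covered the whole exon, with a fold enrichment of 4.67, a percentile of 26.4 and 11 reads at the summit (5.49 to 19.7). In both CDK6-WT lists a peak of the same region stopped short of the exon, by 82 bp in replicate 1 and 58 bp in replicate 2. An antisense transcript, Gm17590, starts within exon 5, so its promoter window covers this exon. Exons 3, 4, 6, 7 and 8 had no peak in any list. The closest peaks to exon 4 and exon 6 were 1343 bp and 1215 bp away, and none came nearer to exons 3, 7 and 8 than 2337 bp.

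Of the 28 pairs of a coding exon and a list, 3 had a peak, and no coding exon had one in all 4 lists. Exons 2 and 5, the only coding exons with a peak, both overlap a promoter window. Exon 2 had a peak in 2 of the 4 lists and exon 5 in 1. Among the 56689 coding exons of all protein-coding genes that overlap a promoter window, 9.82% had a peak in CDK6-WT replicate 1, 6.43% in CDK6-WT replicate 2, 11.1% in CDK6-K43M replicate 1 and 6.37% in CDK6-K43M replicate 2. The 5 Cdk6 coding exons outside promoters had none. Among all 148061 such exons, 0.799% and 0.708% had a peak in the CDK6-WT lists, 1.01% and 0.779% in the CDK6-K43M lists, and 0.282% in all 4 lists. Coding exons without a peak were thus the usual case across genes. Of 10697 genes with at least 5 coding exons outside promoters, 12.5% had a peak on at least 1 of them in any list, and Cdk6 was not one of these. The genes with the highest mean share of such exons under a peak were Abi3 (40%), Limd1 and Mindy1 (35% each), and Ppp2r5b and Sh2d5 (33.3% each).

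The start of the gene carried peaks of low to middling rank. Cdk6 has 5 protein-coding transcript starts within 2827 bp. The first of these, at 3341485, lay under a peak in CDK6-WT replicate 1 (fold 5.39, percentile 27.7) and CDK6-K43M replicate 1 (fold 7.37, percentile 62.2). A peak of CDK6-K43M replicate 2 (chr5:3341125-3341314, fold 5.45, percentile 44.9) ended before this start, and CDK6-WT replicate 2 had none there. The next region, chr5:3342082-3343512, was in all 4 lists and lay between the first start and the cluster of the other starts. Its strongest peaks had fold enrichments of 6.19 and 4.01 in the CDK6-WT lists and of 7.39 and 5.06 in the CDK6-K43M lists. Both replicate 1 libraries stood above both replicate 2 libraries, and the variants overlapped. The RefSeq promoter of Cdk6 (GRCm38.p6, chr5:3343643-3343942), around the start of the reference transcript, had a peak in none of the 4 lists. The nearest peak lay 412 bp and 1178 bp from it in the CDK6-WT lists, and 470 bp and 131 bp in the CDK6-K43M lists. The 470 bp in CDK6-K43M replicate 1 were to the peak on exon 2, and the other 3 distances were to peaks before the promoter.

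**Figure D2:**
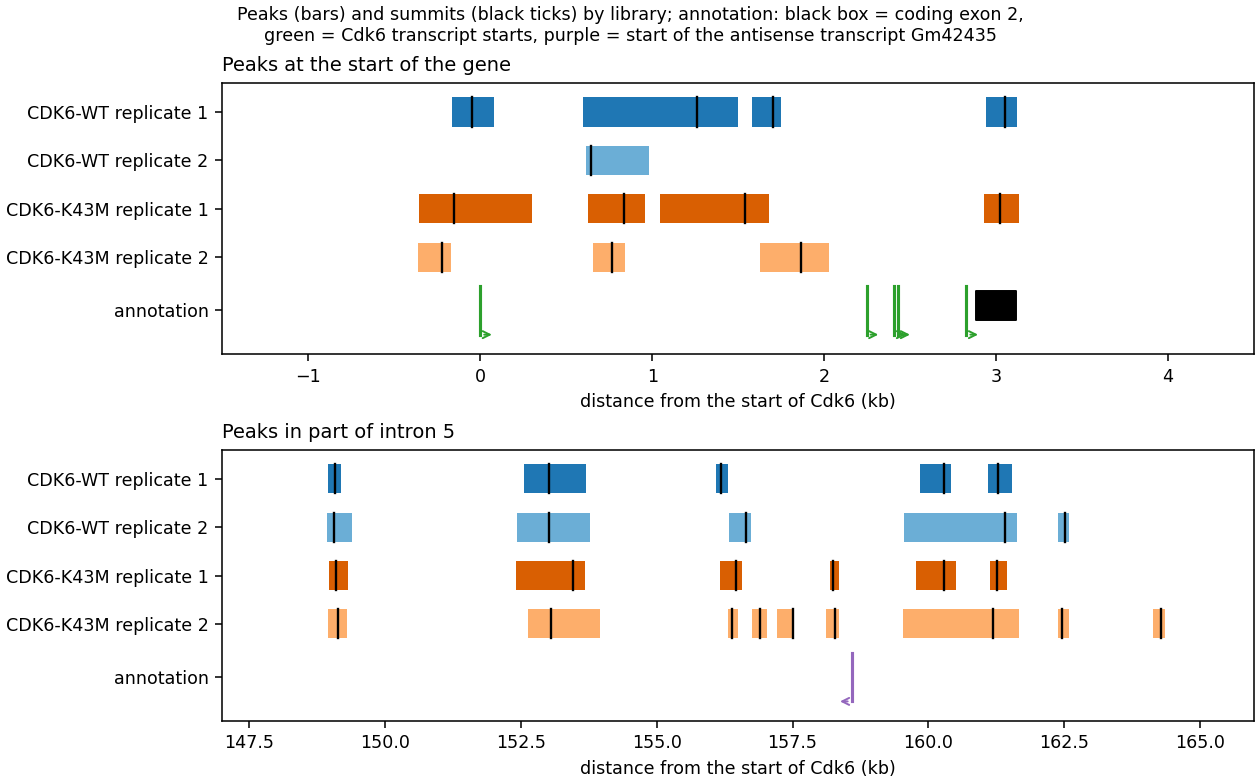
Peaks (bars) and summits (black ticks) of each library against the distance from the start of Cdk6 in kb, at the start of the gene (upper panel) and in part of intron 5 (lower panel). The black box is coding exon 2, green lines are transcript starts of Cdk6 and the purple line is that of the antisense transcript Gm42435. Exon 2 carries a bar in the replicate 1 libraries only, whereas the regions near +149 kb, +153 kb and +161 kb carry a bar in all 4.

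Introns 4 and 5 held most of the summits. Intron 5 (42.2 kb) contained 27 of 66 summits (40.9%), and 25 of these lay within 15.4 kb (chr5:3490410-3505844). Intron 4 (44.0 kb) contained 15 summits and intron 3 (38.2 kb) 7. Intron 2, the longest at 46.1 kb, contained 2, and the 10.2 kb beyond the last coding base of exon 8 and the downstream flank contained none. Peaks were thus spread unevenly, with none in the last stretch of the gene.

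The strongest region was at +153 kb in intron 5 (chr5:3493897-3495445). Its fold enrichment was 7.76 in CDK6-WT replicate 1, 15.3 in CDK6-WT replicate 2, 7.67 in CDK6-K43M replicate 1 and 17.1 in CDK6-K43M replicate 2. Its percentile was 78.2, 97.2, 80.1 and 98.2 in the same order. The values paired by replicate number, not by variant. The reads at its summit numbered 39 (95% exact Poisson interval 27.7 to 53.3), 42 (30.3 to 56.8), 47 (34.5 to 62.5) and 43 (31.1 to 57.9), again in this order. The control level at the summit was 4.0 and 4.11 in the replicate 1 lists, against 1.59 and 1.57 in the replicate 2 lists. If the level of 4.0 is a plain count of 4 control reads, its interval is 1.09 to 10.2. The level of 4.11 is not a whole number of reads, so this interval does not carry over to it. The summit level was 25.3, 24.3, 24.7 and 27.4 in the order above, so that the highest stood 1.13 times above the lowest, against 2.23 times for the fold enrichment.

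The other regions in all 4 lists differed more in summit level among the libraries. A merged region can join peaks at separate sites. The strongest summits of the 4 libraries spanned 432 bp at +153 kb, 1133 bp at +161 kb and 467 bp near +156 kb. They spanned 1223 bp in the Cdk6 promoter region, and 82 bp to 133 bp in the rest of the 8 regions. Where the span was wide, the values may belong to different sites. At +120 kb in intron 4 (chr5:3460445-3461754), the fold enrichment of the CDK6-WT libraries was 6.21 and 10.1, and that of the CDK6-K43M libraries 7.83 and 11.5, with a summit level of 21.1 ± 2.64 (SD, n = 4 libraries). At +161 kb in intron 5 (chr5:3501014-3503147), the region reaches into the promoter window of the antisense transcript Gm42435. Its CDK6-WT values were 6.79 and 6.0 and its CDK6-K43M values 6.52 and 11.5, with a summit level of 18.8 ± 3.19. Here 1 library, CDK6-K43M replicate 2, stood apart in fold enrichment but not in summit level. At +149 kb (chr5:3490410-3490864), the CDK6-WT values were 5.63 and 14.6 and the CDK6-K43M values 5.23 and 8.57, with a summit level of 17.7 ± 4.08. This was the widest spread in fold enrichment of the 8 regions, 2.78 times between the highest and the lowest library. The regions at +79.2 kb in intron 3 and near +156 kb in intron 5 had lower summit levels, of 14.6 ± 3.63 and 9.80 ± 1.97. The weakest, at the start of a retained-intron transcript of Cdk6 in intron 4 (chr5:3470904-3471219), ranked at percentile 5.63 to 25.0, with a summit level of 8.39 ± 2.04. Regions in all 4 lists therefore ranked from percentile 5.63 to percentile 98.2.

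**Figure D3:**
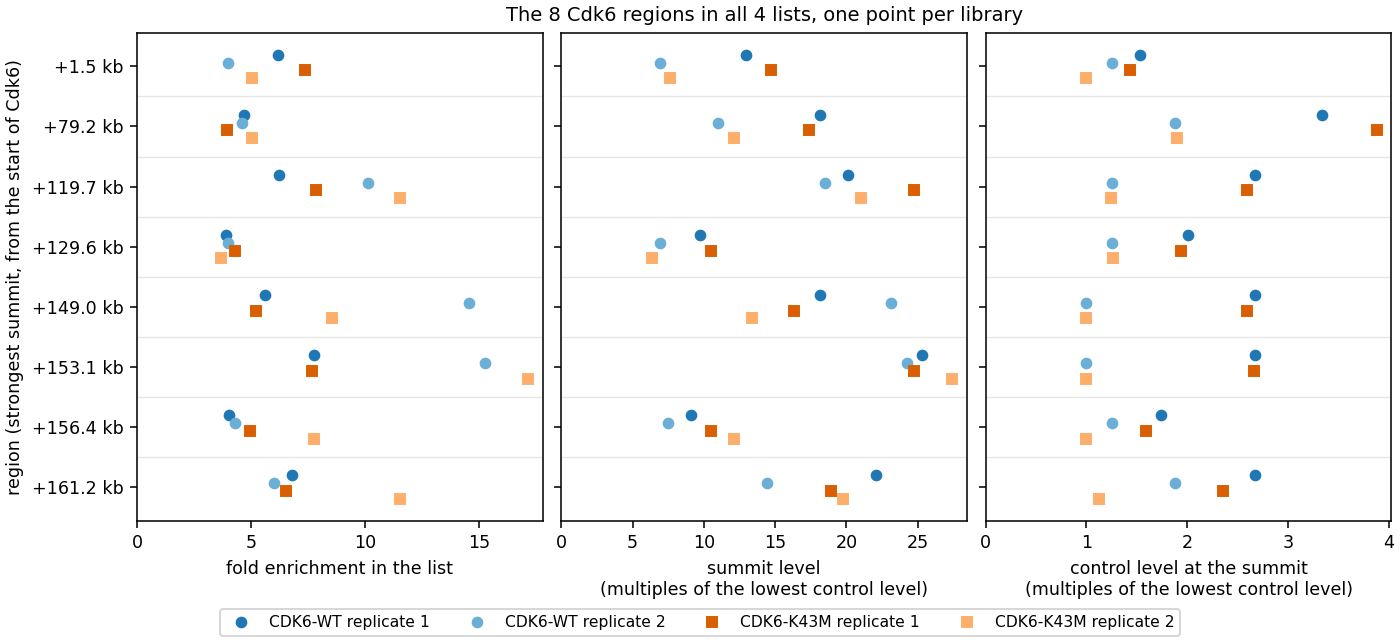
Fold enrichment (left), summit level (middle) and control level at the summit (right), the last 2 as multiples of the lowest control level of the list, for the 8 Cdk6 regions in all 4 lists, with 1 point per library. At +153.1 kb the replicate 1 libraries lie at 7.76 and 7.67 and the replicate 2 libraries above 15 in the left panel, while all 4 libraries lie between 24.3 and 27.4 in the middle panel.

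The 8150 regions in all 4 lists outside any promoter window, antisense and noncoding transcripts included, served as a scale, although the Cdk6 regions at the promoter, at the retained-intron start and at +161 kb overlap such a window. Set against these 8150, the region at +153 kb had a higher mean summit level than 93.4% of them, the region at +120 kb than 83.1%, that at +161 kb than 73.6% and that at +149 kb than 68.3%. The region in the Cdk6 promoter had a higher mean level than 12.7% of them and the region at the retained-intron start than 1.64%.

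The control level at Cdk6 peaks differed between the replicate numbers. It was at least 2 times the lowest control level of the list at 9 of 19 peaks (47.4%) in CDK6-WT replicate 1 and at 6 of 17 (35.3%) in CDK6-K43M replicate 1. In the replicate 2 lists this held for 0 of 11 peaks (0%) in CDK6-WT and 1 of 19 (5.26%) in CDK6-K43M. Over all peaks of these lists the shares were 20.1% in CDK6-WT replicate 1, 5.66% in CDK6-WT replicate 2, 8.81% in CDK6-K43M replicate 1 and 5.42% in CDK6-K43M replicate 2. Over the 8 regions in all 4 lists, the mean fold enrichment was 5.82 for the replicate 1 libraries and 8.33 for the replicate 2 libraries. The mean summit level ran the other way, 17.1 against 14.5, and the mean control level was 2.40 against 1.27 times the lowest. Across the 8150 regions in all 4 lists outside promoters, the median fold enrichment was 7.45 (CDK6-WT) and 7.65 (CDK6-K43M) in the replicate 1 lists. In the replicate 2 lists it was 7.15 and 7.07. Median summit levels there were 14.9 and 15.2 against 13.9 and 13.4, and median control levels 1.34 and 1.29 against 1.26 and 1.26. The labels list 1 input per replicate number, and if the same-numbered lists share it, their control levels are not independent. Its part in the peak calls was not tested.

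For the comparison of the variants, which asks whether kinase activity bears on where CDK6 sits on chromatin, the 8 regions in all 4 lists made up 36.4% of the 22 Cdk6 regions, against 28.9% of all regions. No Cdk6 region was in both CDK6-WT lists only (0.359% of all regions), and 1, at chr5:3499608-3499841 in intron 5, was in both CDK6-K43M lists only (1.26% of all regions). That region ranked at percentiles 33.2 and 0.855, the second being the lowest of all Cdk6 peaks. By replicate number, 4 regions were in both replicate 1 lists only (13% of all regions), exon 2 among them, and 2 were in both replicate 2 lists only (11%). The remaining regions were 2 found in 3 lists and 5 found in 1 list. The strongest replicate 1 region, at +63.9 kb in intron 3 (chr5:3405057-3405611), had fold enrichments of 8.83 and 8.26, the highest of the window in both of those lists, and no peak in the replicate 2 lists.

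CDK6-WT libraries had 15 ± 5.66 peaks at Cdk6 (SD, n = 2) and CDK6-K43M libraries 18 ± 1.41 (SD, n = 2), and the difference of 3 peaks did not exceed the spread (exact two-sided permutation p = 1). The difference was −2 within replicate 1 and +8 within replicate 2, and it became −1 without CDK6-WT replicate 2. Peaks covered 6709 bp and 6986 bp in the CDK6-WT lists and 7588 bp and 8284 bp in the CDK6-K43M lists. The mean difference was 1089 bp and the groups did not overlap (exact permutation p = 0.33, the smallest that 2 against 2 libraries allow). The whole lists did not overlap in length either, with 35189 and 34729 peaks for CDK6-WT against 39797 and 37304 for CDK6-K43M. The mean summit level of the 8 regions was 16.9 and 14.1 in the CDK6-WT libraries, 17.2 and 15 in the CDK6-K43M libraries, and the difference of 0.592 was smaller than the spread (exact permutation p = 0.67). Within the replicate numbers the difference was 0.277 for replicate 1 and 0.908 for replicate 2. It turned negative without CDK6-WT replicate 2 (−0.607) and without CDK6-K43M replicate 1 (−1.23). The mean percentile of the 8 regions stood at 47.1 and 52.6 (CDK6-WT) against 55.3 and 67.4 (CDK6-K43M), a difference of 11.5 without overlap (exact permutation p = 0.33). Neither the covered bp nor this percentile was set against all regions of the series, so whether these differences are particular to Cdk6 was not tested. These tests cannot fall below 0.33, so they do not show that the variants bind Cdk6 alike.

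Cdk6 had more peaks along its body than most long genes. Among 2492 protein-coding genes of at least 100 kb, 4.21% had at least 5 regions in all 4 lists outside promoters, and Cdk6 had 5, or 2.64 per 100 kb, against a median of 0. The 5 are the regions at +79.2, +120, +149, +153 and near +156 kb, since the other 3 in all 4 lists overlap a promoter window. Its peak summits per 100 kb of gene body were 9.50 and 5.80 in the CDK6-WT lists, where the medians were 0.424 and 0.771. They were 8.44 and 9.50 in the CDK6-K43M lists, with medians of 0.609 and 0.81. Between 1.52% and 6.54% of the long genes had more summits per 100 kb in a given list.

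**Figure D4:**
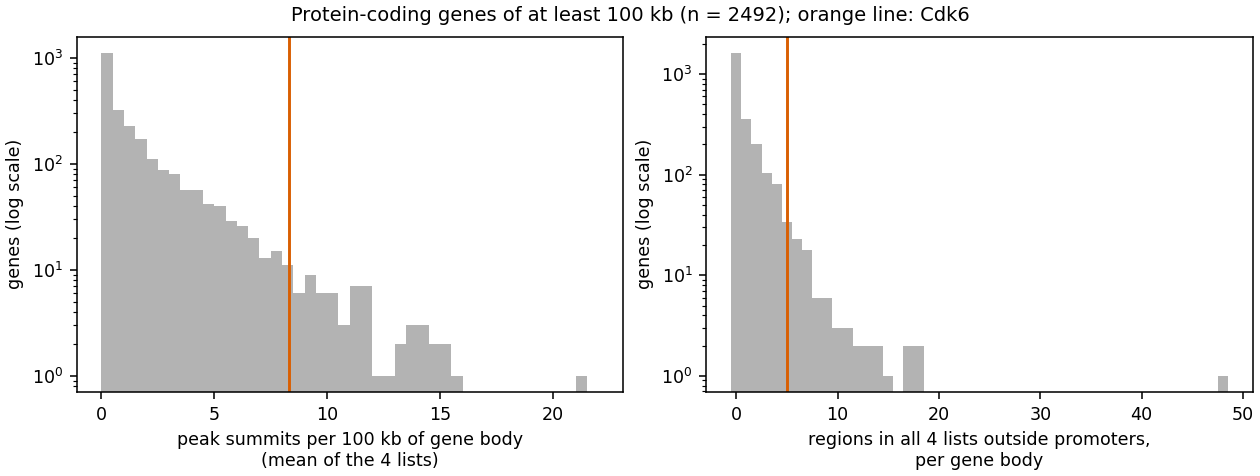
Number of protein-coding genes of at least 100 kb (n = 2492, log scale) by peak summits per 100 kb of gene body averaged over the 4 lists (left) and by regions in all 4 lists outside promoters (right), with Cdk6 as an orange line. Cdk6 lies at 8.31 summits per 100 kb (median of all these genes 0.698) and at 5 regions.

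Short motifs of factors that work in B-lineage cells or at promoters were counted in the 201 bp around the strongest summit of the 8 regions, on both strands. The motifs were chosen after the peaks had been seen, and a match is no proof of binding. The RUNX motif TGTGGT was in 3 of the 8 windows, those at +120 kb, +149 kb and +153 kb, and in 29.8% of the 8150 windows outside promoters (15.5% of windows 1000 bp to either side). The ETS motif AGGAAGT and the EBF motif CCCNNGGGA were in none of the 8 windows and in 20.3% (flanks 5.30%) and 14.6% (flanks 2.94%) of the 8150. The E-box CAGGTG (18.6% of the 8150, flanks 14.9%) and the NFY motif CCAAT (15.7%, flanks 23.2%) were both in the window at the retained-intron start. The SP1 motif GGGCGG (7.14%, flanks 3.82%) was in the promoter window of Cdk6 alone. The 8150 regions overlap no promoter window, whereas 3 of the 8 at Cdk6 do. That promoter window had a GC content of 63.7% and 17 CpG sites, whereas the other 7 windows had 40.3% to 54.7% and 1 to 6 CpG sites.

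Some relatives and partners of Cdk6 had peaks on coding exons outside promoters. Of 137 such exons of 18 other CDK genes, 1.46% to 3.65% had a peak in a given list. Among 16 genes for partners, inhibitors and targets of CDK6, 15 had such exons, and 3.53% to 5.88% of these 85 exons had a peak. Both ranges lay above the shares of all such exons given before, and no test was made of these differences. The CDK share rested in large part on 1 gene. Of the 5, 2, 4 and 4 CDK exons with a peak, the CDK6-WT lists first, Cdk8 held 3, 1, 2 and 3. Cdk4, the closest relative, had 1 such exon without a peak in any list, and a promoter peak in all 4 lists. Of the 18 CDK genes, Cdk4 among them, 3 had such an exon peak in at least 1 list (9.78% of all genes with such exons), namely Cdk8 (3, 1, 2 and 3 of 10 exons, the CDK6-WT lists first) and Cdk19 (1 of 12 exons in each list), kinases of the Mediator complex, and Cdk18 (1 of 8 exons in the replicate 1 lists). In this family 12 of 18 genes had a promoter peak in all 4 lists. Of the 15 partner genes with such exons, 6 had an exon peak in at least 1 list. These 6 were Ccnd1 and Ccnd3 (D-type cyclins), Cdkn2b, Cdkn2c and Cdkn2d (INK4 inhibitors) and Cdkn1b (p27). Of all 16 partner genes, 13 had a promoter peak in all 4 lists, against 33.3% of all genes. Bcr and Abl1 are the mouse genes that correspond to the parts of the transforming fusion, whose species is not given in the sources used here. They had an exon peak at 1, 0, 2 and 0 of 20 exons and at 0, 1, 1 and 1 of 9 exons in the same order of lists. Of their 29 exons, 3.45% to 10.3% had a peak in a given list, against 0.708% to 1.01% of all such exons. These shares rest on 1 to 3 exons per list. The 3 nearest protein-coding genes downstream of Cdk6 had no such exon peak.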

How the data were processed

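ChIP-seq against the HA tag was analysed from 4 peak lists, 1 per library, grouped by the variant and replicate number in the titles, and the 2 input libraries were not analysed here. Per the labels and the study's methods, the authors trimmed reads (Trimmomatic 0.36), aligned them to mm10 (BWA 0.7.15), filtered them and called peaks per library with MACS2 2.1.0. The deposited lists give a fold enrichment (ratio), both p-value and q-value as −log10, a score and other information (summit offset). They state no depth. Whole reads at the summit were solved from fold and −log10 p, with all peaks whole within 0.02 (tested on simulated data). With 8 or 9 reads needed at the lowest control level (7 in CDK6-K43M replicate 2), weaker sites were not detectable. An overlap of at least 1 bp counted.

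The members, gene lists and motifs were chosen with earlier results of these data known. Named genes are Cdk6, Cdk4, Bcr, Abl1, listed genes with an exon peak, and the 5 with the highest exon share. Variants were compared by exact two-sided permutation over 6 assignments. Stricter −log10 q limits (5 or 10), equal list lengths, other windows and overlaps, the replicate block and leaving out each library were tried as alternatives. Python 3.11.15, numpy 2.4.6, pandas 2.3.3 and scipy 1.17.1 were used.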

Additional observations from a re-analysis of the deposited data

How the results depend on the processing

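Of 53 alternative values for 6 results, 4 changed sign and 6 moved a count or mean beyond its limit. The other 43 kept their sign or stayed within their limit, though some differences changed in size. With so few libraries no exact p-value could become small, so for differences only the sign was judged. The difference in the number of Cdk6 peaks (CDK6-K43M minus CDK6-WT, 3) lay between −1 and 7 when each library was left out, with −1 without CDK6-WT replicate 2. With the replicate block, taken within each replicate number, it was 3 (exact sign-flip p = 1, where 2 pairs cannot go below 0.5). The number of coding exons with a peak in all lists was 0 under every alternative run. No coding exon had a peak in more than 2 lists, so none of these alternatives could have changed this number. The 2 coding exons with a summit became 1 when peaks below a −log10 q of 5 were left out and 0 below 10, and leaving out libraries gave 1 to 2, with 1 without CDK6-K43M replicate 2, the only library with a peak on exon 5. The mean of 15.75 peaks per library away from coding exons became 11.25 (limit of 5) and 5.5 (limit of 10), and 12 with the top 30000 peaks per list. These settings keep fewer peaks by construction. Leaving out libraries gave 15 to 17.3. The mean percentile of peaks on coding exons differed by 2.69 (1 CDK6-WT library against 2, exact permutation p = 1) and lay between −7.60 and 13 with libraries left out (13 with the limit of 5), −7.60 being without CDK6-K43M replicate 1. With the replicate block only replicate 1 had a value (13), and none could be had with the limit of 10 or without CDK6-WT replicate 1. The summit level and its alternatives were added after seeing the data. Its difference of 0.592 lay between −1.23 (without CDK6-K43M replicate 1) and 1.71 when libraries were left out, with −0.607 without CDK6-WT replicate 2. It was 2.44 with the limit of 10 (exact permutation p = 0.33), 0.0725 with the limit of 5 or the top 30000, and 0.629 on the scale of fold enrichment. The cause of these changes was not tested.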
